A study of Mus musculus with 24 samples.

Results

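DNA methylation levels were examined in and around the 8 mouse genes whose products write, copy and erase the mark itself: Dnmt1, Dnmt3a, Dnmt3b, Dnmt3l, Tet1, Tet2, Tet3 and Uhrf1. Every covered tile of 100 bp was taken from 5000 bp upstream of the first transcription start of each gene to the end of the gene, with the starts of all curated RefSeq transcripts on mm10 counted. This gave 518 tiles of the 1005908 covered in at least 1 tissue, with 435 of 819713 tiles in liver, 494 of 942643 in brain and 486 of 930358 in heart. Of the 518 tiles, 82 were promoter tiles, which touched the stretch from 1000 bp before to 500 bp after any of the 17 starts, 413 lay in the gene bodies and 23 in the rest of the upstream flank. Genes were chosen by name and not by their methylation. On mm10, over all curated transcripts, the genes that place and copy the mark are Dnmt1 at chr9:20907206-20959888 (reverse strand, 70 tiles), Uhrf1 at chr17:56303337-56323486 (forward, 42 tiles), Dnmt3a at chr12:3806980-3914443 (forward, 119 tiles), Dnmt3b at chr2:153649449-153687730 (forward, 34 tiles) and Dnmt3l at chr10:78042287-78063622 (forward, 18 tiles). The erasers, all on the reverse strand, are Tet1 at chr10:62804570-62887324 (97 tiles), Tet2 at chr3:133463677-133544390 (43 tiles) and Tet3 at chr6:83362373-83456392 (95 tiles).

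Methylation at the 5-position of cytosine sits almost wholly on CpG dinucleotides in somatic mouse cells. Dnmt3a and Dnmt3b place it on unmethylated DNA, Dnmt3l is their partner without catalytic activity in germ cells and early embryos, and Dnmt1 copies the pattern to the daughter strand at replication, brought there by Uhrf1, which binds hemimethylated CpGs. The Tet enzymes oxidise 5-methylcytosine to 5-hydroxymethylcytosine and further forms, the first step of active removal. Bisulphite sequencing does not separate 5-methylcytosine from 5-hydroxymethylcytosine, which is abundant in brain, so a level here is the sum of both.

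The animals were unmodified mice of the inbred strain C57BL/6J, all 24 weeks old, and the tissues were a front slice of brain, the apex of the heart and the tail end of a liver lobe. Liver had 12 libraries (6 male, 6 female) and brain and heart 6 each (3 male, 3 female), made by enhanced reduced representation bisulphite sequencing (RRBS), which reads CpGs near restriction sites. The brain and heart libraries came from mice whose livers were also measured, but the level columns are only numbered and cannot be tied to a mouse or gender, so libraries were grouped by tissue alone. All samples are bulk tissue, in which a level between 0 and 100% can come from a mixture of cell types or from partial methylation within each, and these cannot be told apart. Each tissue also has a table of its own, so that tissue and table cannot be told apart.

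Over the 758685 tiles covered in all 3 tissues, the mean level of a library ran from 64.8 to 66.1% in liver, from 63.7 to 66.4% in brain and from 59.6 to 60.3% in heart. The median difference over all shared tiles was 0.28 percentage points for liver minus brain, 3.53 for liver minus heart and 3.2 for brain minus heart, and differences against heart are to be read relative to these. Among promoters of marker genes covered in all 3 tissues, 2 of 2 liver markers were lowest in liver, 4 of 5 brain markers in brain and 1 of 2 heart markers in heart (the exceptions were Mbp and Ryr2). No read counts come with the levels, so the depth behind each tile is unknown. The labels give each library of a tissue to a different mouse. The spread between libraries holds that between animals together with that of handling and reads, which cannot be told apart.

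The stretches of sequence below carry the tissue differences described in the rest of the text. They are the longest runs of adjoining called tiles or the tile with the largest difference of each gene except Dnmt3l, plus the edge of the Tet1 promoter, which was added after its values were seen. All are from the forward strand of mm10 and run 5′ to 3′, and capitals mark every CpG of the genome sequence. Levels were deposited per tile, so which of these CpGs the reads covered is not known.

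Dnmt1, intron 1, chr9:20944101-20944300: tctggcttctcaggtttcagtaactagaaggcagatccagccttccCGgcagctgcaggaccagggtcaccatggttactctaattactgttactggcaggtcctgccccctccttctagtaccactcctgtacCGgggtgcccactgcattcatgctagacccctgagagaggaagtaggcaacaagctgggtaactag

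Dnmt3a, intron 2, chr12:3842901-3843200: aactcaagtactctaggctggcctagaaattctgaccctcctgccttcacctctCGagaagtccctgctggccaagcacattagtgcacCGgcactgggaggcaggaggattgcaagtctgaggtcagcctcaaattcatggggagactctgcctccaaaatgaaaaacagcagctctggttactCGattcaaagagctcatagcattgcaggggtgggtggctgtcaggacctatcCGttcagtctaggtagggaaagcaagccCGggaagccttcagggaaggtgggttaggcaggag

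Dnmt3a, intron 3, chr12:3865701-3865800: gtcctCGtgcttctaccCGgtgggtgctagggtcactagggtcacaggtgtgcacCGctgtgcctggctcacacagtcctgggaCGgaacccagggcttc

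Dnmt3b, intron 2, chr2:153657001-153657200: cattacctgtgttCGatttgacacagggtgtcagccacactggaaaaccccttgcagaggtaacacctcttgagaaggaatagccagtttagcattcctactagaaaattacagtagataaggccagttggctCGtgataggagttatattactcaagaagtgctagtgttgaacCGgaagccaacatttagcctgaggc

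Tet1, upstream edge of the promoter, chr10:62887401-62887700: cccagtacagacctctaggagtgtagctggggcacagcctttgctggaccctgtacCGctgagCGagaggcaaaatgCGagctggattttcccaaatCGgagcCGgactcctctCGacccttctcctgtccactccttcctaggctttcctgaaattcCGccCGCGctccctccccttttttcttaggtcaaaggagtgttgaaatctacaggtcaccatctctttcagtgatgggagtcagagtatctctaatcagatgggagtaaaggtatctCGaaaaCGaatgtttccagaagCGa

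Tet1, intron 2, chr10:62866201-62866300: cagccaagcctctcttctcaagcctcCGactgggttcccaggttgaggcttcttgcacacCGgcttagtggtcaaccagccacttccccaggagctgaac

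Tet2, intron 1, chr3:133522401-133522600: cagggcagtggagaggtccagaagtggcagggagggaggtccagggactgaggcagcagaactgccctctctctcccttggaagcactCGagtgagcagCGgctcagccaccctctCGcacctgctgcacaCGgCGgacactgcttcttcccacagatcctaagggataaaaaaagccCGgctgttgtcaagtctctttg

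Tet3, intron 2, chr6:83451901-83452200: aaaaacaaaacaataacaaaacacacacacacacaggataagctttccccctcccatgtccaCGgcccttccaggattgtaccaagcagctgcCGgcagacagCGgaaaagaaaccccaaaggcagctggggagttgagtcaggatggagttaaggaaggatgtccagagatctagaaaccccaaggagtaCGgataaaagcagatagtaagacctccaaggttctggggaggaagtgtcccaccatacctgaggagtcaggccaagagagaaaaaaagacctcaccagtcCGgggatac

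Tet3, intron 2, chr6:83445801-83445900: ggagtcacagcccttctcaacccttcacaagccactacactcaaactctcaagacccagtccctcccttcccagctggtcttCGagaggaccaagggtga

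Uhrf1, intron 13, chr17:56319801-56319900: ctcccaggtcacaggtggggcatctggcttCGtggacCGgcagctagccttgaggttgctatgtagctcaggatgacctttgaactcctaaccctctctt

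These are sparse in CpGs. The 200 bp of Dnmt3b hold 3, the 200 bp of Dnmt1 hold 2 and the Tet3 tile at 83445801 holds 1. The Tet1 promoter edge holds 12 CpGs in 300 bp, or 4, 5 and 3 in its tiles from the start outwards.

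Over the covered promoter tiles, 7 of the 8 genes were nearly free of methylation in every tissue, and Dnmt3l was the exception. Its value rests on 4 tiles at the first of its 4 starts, all within the transcript of Aire. The other starts of Dnmt3l had no promoter tile. In liver the mean promoter level was 0.54 ± 0.13% for Dnmt3b (SD over libraries, n = 12), 1.02 ± 0.23% for Tet3, 1.40 ± 0.62% for Dnmt1, 2.38 ± 0.99% for Tet2, 3.79 ± 1.09% for Uhrf1, 5.68 ± 0.75% for Dnmt3a and 6.22 ± 1.29% for Tet1. The Dnmt3l promoter stood at 72.8 ± 4.5% in liver, 77.2 ± 1.7% in brain and 58.2 ± 4.0% in heart (n = 12, 6 and 6). The genes kept this order in brain and in heart. Neighbours in the order overlapped in their library ranges in most places, and in all 3 tissues Dnmt3l stood clear of Tet1, the next below it. Of the promoter tiles of all 8 genes, 66 of 78 were under 10% in liver, 70 of 81 in brain and 69 of 79 in heart.

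**Figure D1:**
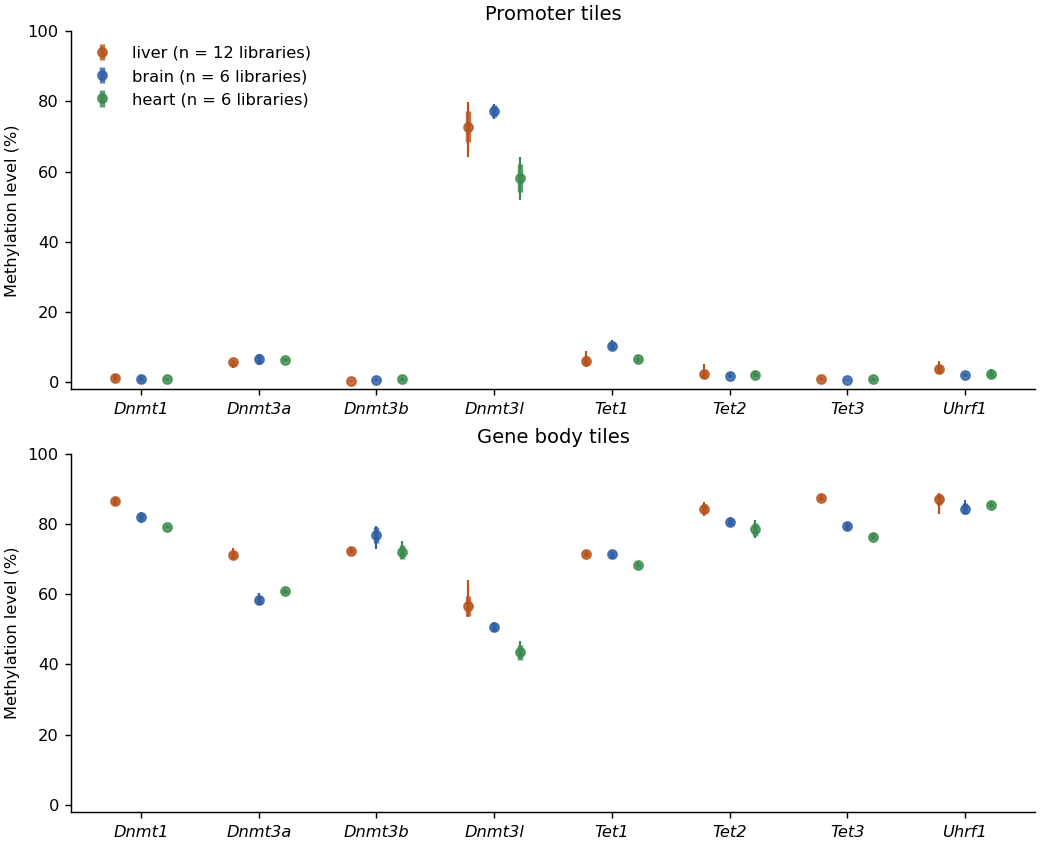
Mean methylation level (%) of the promoter tiles (top) and gene body tiles (bottom) of each gene in liver, brain and heart. Each level is over the tiles covered in that tissue, which differ in part between tissues. Drawn so, the Dnmt3l body stands at 56.6, 50.8 and 43.5% and the Uhrf1 body at 87.1, 84.3 and 85.5%. Over tiles covered in all 3 tissues these are 56.6, 57.0 and 56.1% and 85.3, 89.3 and 87.1%. Differences in the text are over tiles shared by the tissues compared. Points are means over 12, 6 and 6 libraries, thick bars the SD and thin lines the range. The Dnmt3l promoter lies at 58.2 to 77.2% (4 tiles at the first of its 4 starts). The other 7 lie at or below 10.4%.

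Taking each start by itself, Dnmt1 is read from 3 places. At the starts 20952979 and 20952623 on chromosome 9 (reverse strand), the covered tiles lay in a stretch of 1100 bp with all 10 tiles under 10% in each tissue. The start of the transcript that begins farthest upstream, at 20959888, had no tile within its promoter. The nearest tile, 937 bp into the gene and wholly within masked repeat sequence, had a level from 88.4 to 100% in liver (median 94.2%), from 81.3 to 92.7% in brain (median 88.3%) and from 77.9 to 88.7% in heart (median 84.8%).

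Dnmt3a has 2 neighbouring starts for its long form, at 3806980 and 3807160 on chromosome 12, and a start far inside the gene, at 3891744, from which the short form of the enzyme is made. The long-form starts sat in an unmethylated stretch, counted over covered tiles under 10%, of 1900 bp in liver, 2900 bp in brain and 2700 bp in heart. These lengths depend on which tiles each table covers, and liver had no tile in the last 800 bp of the brain stretch. Around the first long-form start liver had a mean level of 1.88 ± 0.55%, brain of 1.59 ± 0.18% and heart of 1.96 ± 0.23%. The corresponding means around the short-form start were 14.5 ± 2.2%, 20.2 ± 5.3% and 20.1 ± 2.5%, with no long unmethylated stretch. Only the tile at the short-form start itself lay under 10% in all tissues, with means of 2.42%, 2.4% and 1.2%. The tile centred 207 bp past the start, chosen after its values were seen, held 15.7 to 32.5% in liver (median 22.4%), 28.0 to 52.1% in brain (median 46.4%) and 31.1 to 40.8% in heart (median 33.2%). Liver and brain overlapped there in part, and liver was lower than brain by 19.7 ± 3.26 points (SE, adjusted p = 4.7e-05) and lower than heart by 11.7 ± 2.14 points (adjusted p = 0.00011), both under the 25 points asked of a called tile. The promoter of Dnmt3a over all starts was lower in liver than in brain by 2.05 ± 0.47 points (adjusted p = 0.00083) and lower than in heart by 1.49 ± 0.30 points (adjusted p = 0.00021).

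Tet1 had the largest promoter difference among the unmethylated promoters. Over its 9 tiles brain stood at 10.4 ± 1.0%, with libraries from 9.28 to 12.1%, against 4.31 to 8.89% in liver and 5.90 to 7.14% in heart. No brain library overlapped those of the other tissues. Brain was higher than liver by 4.20 ± 0.58 points (adjusted p = 3.1e-06) and higher than heart by 3.85 ± 0.45 points (adjusted p = 9.3e-06). The tile farthest upstream in this promoter, at -327 bp from the start, held 23.5 to 50.9% in liver (median 30.6%), 47.7 to 73.8% in brain (median 62.1%) and 33.3 to 48.4% in heart (median 43.5%). Brain and liver libraries overlapped only between 47.7 and 50.9%, and the tile was called between them at a difference of 28.0 ± 4.44 points (adjusted p = 2.9e-05). The next tile towards the start held 5.58 ± 1.69% in liver, 14.6 ± 4.65% in brain and 8.67 ± 2.16% in heart, and the tile after it 2.40%, 6.78% and 2.03%. With the promoter restricted to its upstream side, Tet1 was lower in liver than in brain by 10.9 points, which passed the 10 points asked of a region.

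Tet3 starts at 83456392 and at 83441678 on chromosome 6 (reverse strand), and both lay in unmethylated stretches, at 0.66 ± 0.20%, 0.58 ± 0.16% and 0.67 ± 0.23% around the first start and at 1.53 ± 0.44%, 1.05 ± 0.07% and 1.11 ± 0.55% around the second, in liver, brain and heart. At the tile nearest its start, Dnmt3b held 0.52% in liver, 0.6% in brain and 1.03% in heart, and Tet2 held 0.92%, 0.52% and 1.2%. The single starts of both had stretches under 10% of 800 and 900 bp in each tissue. Uhrf1 has starts at 56303337 and 56304313 on chromosome 17. The tile at -486 bp from the first is the highest of this promoter and not the one nearest that start. It held 23.6 ± 6.7% in liver, 13.7 ± 4.8% in brain and 14.2 ± 6.4% in heart. The Uhrf1 promoter was higher in liver than in brain by 1.46 ± 0.45 points (adjusted p = 0.0086).

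The Dnmt3l promoter was lower in heart than in both other tissues. Its 4 tiles had a mean from 64.2 to 79.9% in liver, from 75.0 to 79.3% in brain and from 51.9 to 64.1% in heart, so that liver and heart barely failed to overlap. Liver exceeded heart by 14.6 ± 2.01 points (adjusted p = 2.0e-06) and brain exceeded heart by 19.0 ± 1.66 points (adjusted p = 8.6e-07). With the promoter taken as 2000 bp on either side, the differences fell to 9.18 and 6.69 points, under the size asked of a region. The tile at the start (centred at -36 bp) held 30.4 to 48.7% in heart (median 35.9%), 70.3 to 80% in brain (median 75.6%) and 39.1 to 86.7% in liver (median 70.2%). Brain and heart did not overlap there, and liver spread over both. The tile was called higher in liver than in heart, by 30.1 ± 6.54 points (adjusted p = 0.00067), and higher in brain than in heart, by 39.0 ± 3.78 points (adjusted p = 6.1e-06). The promoter and flank of Dnmt3l also lie within the transcript of Aire, which drives expression of tissue antigens in the thymus, and 11 of the 18 Dnmt3l tiles touched it, among them all 4 of the promoter. A low tile 1364 bp into Dnmt3l, also within Aire, held 3.86% in liver, 3.12% in brain and 3.78% in heart. The other 3 starts of Dnmt3l had no tile within their promoters. The tile nearest the first of these, at -5891 bp, held 24.3% in liver, 21.3% in brain and 20.7% in heart, and that nearest the last, at 1916 bp, held 89.1%, 81.4% and 84.6%.

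In the comparison of gene regions, each promoter, body or upstream flank with 3 or more tiles in both tables was fitted as 1 value per library. Called regions had an adjusted p of 0.01 or less over all regions of all genes and a difference of 10 points or more. Of the 19 regions of the 8 genes, 1 was called between liver and brain, where 14.2% of 38761 regions of all genes were called, 3 between liver and heart (19.2% of 38742) and 3 between brain and heart (14.8% of 40961). Liver is in the first and second of these comparisons, and brain and heart are each in a pair of them as well, so that they are not independent.

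The region called between liver and brain was the body of Dnmt3a. Over the 74 tiles covered in both, its level was 70.5% in liver and 58.9% in brain, a difference of 11.7 ± 0.65 points (SE, adjusted p = 6.9e-12). Over each table's own tiles the libraries ran from 69.9 to 73.2% in liver, from 57.4 to 60.5% in brain and from 60.0 to 61.4% in heart, so that liver stood clear of both. Against heart the difference was 9.38 ± 0.54 points (adjusted p = 5.4e-12), under the 10 points asked for, and brain was lower than heart by 2.68 ± 0.77 points (adjusted p = 0.010). The median difference over all gene bodies was 1.06 points for liver minus brain, 5.12 for liver minus heart and 3.76 for brain minus heart.

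The bodies of Dnmt1 and Tet3 were also higher in liver than in brain, by 4.56 ± 0.53 points (adjusted p = 3.1e-07) and 6.94 ± 0.49 points (adjusted p = 2.2e-10), as was that of Tet2, by 3.16 ± 0.63 points (adjusted p = 0.00024). The bodies of Dnmt3b and Uhrf1 were lower in liver than in brain, by 4.01 ± 0.67 points (adjusted p = 3.3e-05) and 3.50 ± 0.69 points (adjusted p = 0.00021). For Tet1 the difference was 0.37 ± 0.52 points (adjusted p = 0.56) and for Dnmt3l -0.36 ± 1.26 points (adjusted p = 0.82). Against heart, liver was higher in the bodies of Tet3 by 9.67 ± 0.43 points (adjusted p = 1.0e-13), Dnmt1 by 6.84 ± 0.45 points (adjusted p = 4.1e-11), Tet2 by 6.62 ± 0.69 points (adjusted p = 4.3e-08) and Tet1 by 3.93 ± 0.41 points (adjusted p = 4.6e-08), of which the last is below the median of all gene bodies. The body of Dnmt3b, at 72.3% in liver and 73.3% in heart over 19 shared tiles, differed by -1.0 ± 0.58 points (adjusted p = 0.14).

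In the upstream flanks of Uhrf1, Dnmt3l and Tet1, those with 3 or more tiles, heart had the lowest level. The flank of Uhrf1 stood at 76.9% in liver and 63.7% in heart over 6 tiles (difference 13.3 ± 1.42 points, adjusted p = 6.0e-08) and at 77.9% in brain (14.2 ± 1.89 points above heart, adjusted p = 3.0e-05). The flank of Dnmt3l was higher in liver than in heart by 13.1 ± 1.99 points over 3 tiles (adjusted p = 7.1e-06). The flank of Tet1 was higher in brain than in heart by 11.5 ± 1.29 points (adjusted p = 6.7e-06), and higher in liver than in heart by 9.66 ± 0.83 points (adjusted p = 2.3e-09). The flanks of the other genes had at most 2 tiles and were not fitted as regions. That of Tet3 was lowest in brain, at 76.4 ± 7.1%, with liver at 93.5 ± 3.3% and heart at 93.4 ± 5.0%, and its tiles were lower in brain than in heart by 16.4 ± 4.22 points (adjusted p = 0.0071) and 17.8 ± 2.92 points (adjusted p = 0.00033), under the size asked of a called tile. The Dnmt3a flank, not covered in liver, stood at 88.2 ± 3.2% in brain and 78.9 ± 5.6% in heart. The Dnmt3b flank had a tile at -1398 bp from the start with 77.2 ± 3.7% in liver, 52.8 ± 3.4% in brain and 50.2 ± 2.2% in heart, which was called between liver and heart (27.0 ± 2.25 points, adjusted p = 2.6e-09). Dnmt1 and Tet2 had no tile in their flanks. Over the flanks of all genes the median difference was 4.16 points for liver minus heart and 3.34 for brain minus heart. Measured from the median of their class, the Dnmt3a body was 10.6 points higher in liver than in brain, the Dnmt3l promoter remained past 10 points in both comparisons with heart and the Uhrf1 flank did in brain against heart (10.9 points), while the flanks of Uhrf1, Dnmt3l and Tet1 came to 9.09, 8.96 and 8.17 points in the comparisons named here.

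Single tiles showed more than these means. A tile was called at an adjusted p of 0.01 or less over all tiles covered in both tissues and a difference of 25 points or more, and 64 of the 518 tiles were called in at least 1 of the 3 comparisons. Of these 49 lay wholly in introns, 7 touched coding exons, 4 touched untranslated exons only, 2 were in promoters and 2 in upstream flanks. Among the 64, 19 had 1 CpG, and the mean was 2.33 in called body tiles against 3.01 in the 353 other body tiles. Of all 518 tiles, 413 were body tiles. Places and tiles with 1 CpG were not counted for uncalled tiles or for all genes. These counts can therefore not be read as traits of called tiles. Shares over all genes follow for each comparison.

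Of 321 body tiles covered in liver and brain, 30 were called higher in liver (9.35%) and 10 lower (3.12%), where 6.71% and 5.63% of all 359673 body tiles were. Between liver and heart 34 of 320 were called higher in liver (10.6%) and 8 lower (2.50%), where 9.73% and 3.76% of all body tiles were. Between brain and heart 13 of 375 were called higher in brain (3.47%) and 9 lower (2.40%), where 7.61% and 2.28% of all body tiles were. In promoters 1 of 77 tiles was called between liver and brain, 1 of 77 between liver and heart and 1 of 79 between brain and heart, where 3.64%, 3.49% and 2.39% of all promoter tiles were. With flanks included, the called tiles of brain against heart were 15 higher and 9 lower in brain, and 12 and 12 when differences were measured from the median of all tiles.

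The counts were unevenly spread. In Dnmt3a 17 of 74 body tiles were called higher in liver than in brain (23.0%) and 16 of 74 higher in liver than in heart (21.6%), both above the share over all genes. In Tet1, with 63 and 66 shared body tiles, 2 were called higher in liver in each comparison, and in Dnmt1 2 of 51 and 3 of 50. Tet2 had 4 of 24 body tiles higher in liver than in heart (16.7%) and Tet3 9 of 62 (14.5%), where 9.73% of all body tiles were. Dnmt3b, Dnmt3l and Uhrf1 had 0 of 19, 0 of 8 and 0 of 17 in that direction. Tet3 also had 6 of 72 higher in brain than in heart (8.33%), near the 7.61% of all body tiles. The shares of single genes were not tested against each other.

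**Figure D2:**
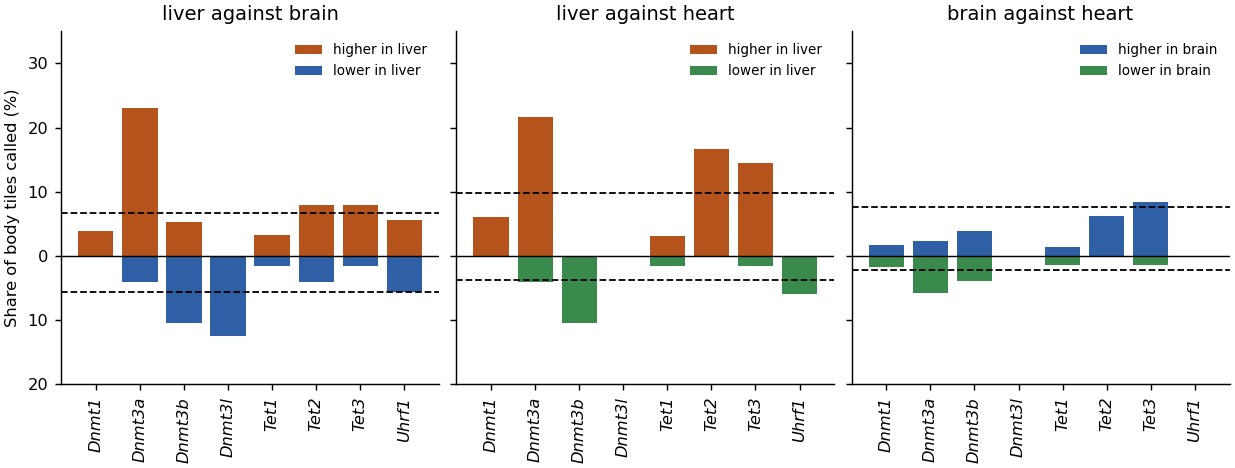
Share (%) of the shared body tiles of each gene called in each pair of tissues, drawn upwards where the first tissue was higher and downwards where it was lower, with dashed lines at the share over all body tiles of all genes. Dnmt3a stands at 23.0 and 21.6% higher in liver, where all genes stand at 6.71 and 9.73%.

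Dnmt3a had the most covered tiles of the 8 genes (119) and the most called tiles (27). These lay between 2971 and 106271 bp past its first start. Its tile with the largest difference is that of intron 3 shown above (chr12:3865701-3865800, 4 CpGs), which ran against the body as a whole. Liver held 15.7 to 42.4% there (median 27.4%), brain 78.4 to 91.4% (median 83.7%) and heart 70.3 to 89.2% (median 80.1%). No liver library reached those of the other tissues, and liver was lower than brain by 57.8 ± 4.02 points (adjusted p = 2.1e-10) and than heart by 53.6 ± 4.02 points (adjusted p = 5.2e-10). The longest run of called tiles, 3 tiles with 5 CpGs in intron 2 (chr12:3842901-3843200), went the other way. Its means were 74.8, 65.9 and 87.2% in liver, 28.8, 26.5 and 45.4% in brain and 43.9, 36.0 and 55.5% in heart. Liver exceeded brain by 42.4 points and heart by 30.8 points on average over the run, with adjusted p from 1.3e-09 to 5.7e-08 against brain and from 6.3e-11 to 3.4e-07 against heart. Another pair of tiles, chosen after its values were seen, lies in intron 1 at a start that RefSeq only predicts, with centres at -144 and -44 bp from it. The first of these held 35 to 75% in liver (median 58.2%), 4.30 to 16.0% in brain (median 5.60%) and 0 to 8.10% in heart (median 2.60%). Liver was methylated at this intronic site and both other tissues were near 0, with differences of 48.4 ± 4.90 points (adjusted p = 6.4e-08) and 52.7 ± 4.79 points (adjusted p = 9.6e-09).

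**Figure D3:**
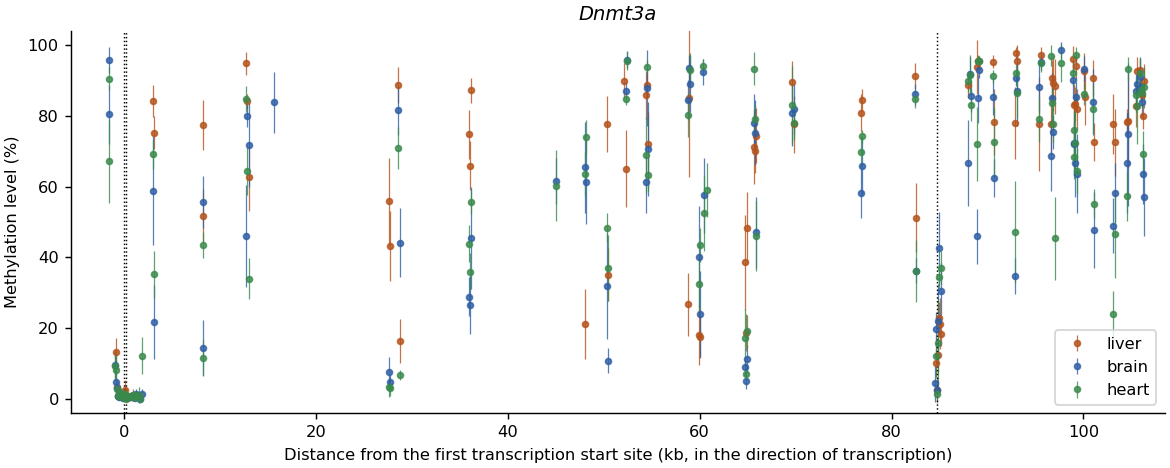
Methylation level (%) of each covered tile of Dnmt3a by its distance (kb) from the first transcription start, as mean ± SD over 12 liver, 6 brain and 6 heart libraries, with dotted lines at the 3 starts. The level is near 0 around the long-form starts, 14.5 to 20.2% around the short-form start, and lies apart between tissues at intronic tiles such as that in intron 3 (26.7% in liver, 84.5% in brain, 80.3% in heart).

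In Dnmt3b 4 of the 34 tiles were called in at least 1 comparison. Of 19 body tiles shared by liver and brain, 1 was called higher in liver (5.26%) and 2 lower (10.5%). Over all genes 6.71% and 5.63% of body tiles were. The largest difference of all 518 tiles lay in intron 2, 7702 bp past the start (chr2:153657101-153657200), where liver held 8.30 to 24.6% (median 14.2%), brain 88.2 to 96.9% (median 91.4%) and heart 57.9 to 73.0% (median 64.5%). The 3 tissues did not overlap. Liver was lower than brain by 77.1 ± 2.45 points (adjusted p = 4.3e-15) and lower than heart by 49.8 ± 2.49 points (adjusted p = 1.2e-12), and brain was higher than heart by 27.2 ± 2.82 points (adjusted p = 9.8e-06). The adjoining tile held 22.1 ± 9.4% in liver, 87.0 ± 7.9% in brain and 72.8 ± 6.4% in heart. The pair makes the longest run of called tiles in the gene. A tile that touches the coding part of exon 10 (chr2:153670401-153670500, 1 CpG), chosen after its values were seen, was low in brain, at 52.2 ± 13.5%, against 85.2 ± 5.0% in liver and 88.3 ± 4.1% in heart.

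Dnmt1 had 4 called tiles of its 70, all in intron 1 of its longest transcript. In the run of 2 shown above, the tile at 20944201 held 79.2 to 91.8% in liver (median 83.8%), 16.0 to 45.4% in brain (median 26.2%) and 53.6 to 73.0% in heart (median 63.0%). Each tissue stood apart, with liver above brain by 58.0 ± 3.57 points (adjusted p = 3.1e-11) and brain below heart by 35.8 ± 5.36 points (adjusted p = 0.00017). Its neighbour at 20944101 held 75.0 ± 10.2% in liver, 28.8 ± 6.2% in brain and 34.1 ± 5.4% in heart. Each of these tiles holds 1 CpG.

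Among the erasers, Tet1 had its largest difference at the edge of an unmethylated stretch inside intron 2. Over 300 bp from 62865601 on chromosome 10, 3 tiles with 14 CpGs held on average 4.09% in liver, 1.48% in brain and 1.61% in heart, 21573 bp past the start. At 62866201, 300 bp beyond, the tile held 67.4 to 82.3% in liver (median 78.4%), 6.60 to 19.2% in brain (median 15.2%) and 39.6 to 46.0% in heart (median 43.6%). The 3 tissues were wholly separate, with differences of 64.0 ± 2.82 points for liver minus brain (adjusted p = 2.2e-13), 34.7 ± 2.40 for liver minus heart (adjusted p = 1.5e-10) and -29.2 ± 2.34 for brain minus heart (adjusted p = 1.5e-06). The curated annotation has 1 Tet1 transcript and no start here. A tile that touches coding exon 6, with 4 CpGs (chr10:62832901-62833000, chosen after its values were seen), was low in liver, at 24.7 ± 4.7%, against 70.2 ± 7.1% in brain and 62.0 ± 6.1% in heart.

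Tet2 had its largest difference in a run of 2 tiles of intron 1 with 6 CpGs. The first tile held 90 to 97.8% in liver (median 93.5%), 40.9 to 65.1% in brain (median 53.2%) and 60.8 to 76.6% in heart (median 65.3%). Liver stood above both, by 39.6 ± 2.67 points (adjusted p = 1.3e-10) and 26.8 ± 2.12 points (adjusted p = 1.2e-09). A second run in the same intron, at 133533401, was low in heart: its first tile held 45.4 ± 6.3% there against 78.1 ± 9.6% in liver and 75.7 ± 4.1% in brain, with 84 of its 100 bases in masked repeats. At 133534101, a tile chosen after its values were seen, brain was high instead, at 44.7 ± 7.4% against 15 ± 5.5% in liver and 15.3 ± 3.0% in heart.

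In Tet3 heart had the lowest level in 7 of the 7 body tiles covered in all 3 tissues between the starts, with 2 more not covered in liver. This window is not part of the rule for naming given below. Over the body tiles of all 8 genes, heart was below liver in 253 of 320 and below brain in 225 of 375. How often heart is lowest over all genes was not counted, so 7 of 7 is not read as particular to Tet3. The tile with the largest difference (chr6:83445801-83445900, 1 CpG, also within the non-coding gene B230319C09Rik) held 54.8 to 82.1% in liver (median 77.6%), 42.9 to 65.5% in brain (median 55.9%) and 12.6 to 25.2% in heart (median 21.4%). Heart was below liver by 53.8 ± 3.86 points (adjusted p = 2.6e-10) and below brain by 34.5 ± 3.87 points (adjusted p = 1.8e-05), and liver and brain overlapped. The run of 3 tiles in intron 2, centred 4341 bp past the first start, had means of 31.3, 51.3 and 42.6% in heart, 63.9, 86.2 and 76.9% in brain and 84.1, 87.5 and 83.1% in liver. On average over the run heart was lower than liver by 43.2 points and lower than brain by 33.9 points, and no heart library in any of the 3 tiles reached a liver or brain library. A tile with 10 CpGs that touches the coding part of exon 8 (chr6:83375701-83375800) held 60.3 ± 6.9% in heart against 93.0 ± 2.4% in liver and 90.2 ± 3.8% in brain. A tile of intron 3 at 83410201 was methylated in liver, at 57.8 ± 10.2%, and low in brain, at 16.1 ± 3.3%, and heart, at 10.2 ± 2.2%. That tile and the one at exon 8 were chosen after their values were seen.

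**Figure D4:**
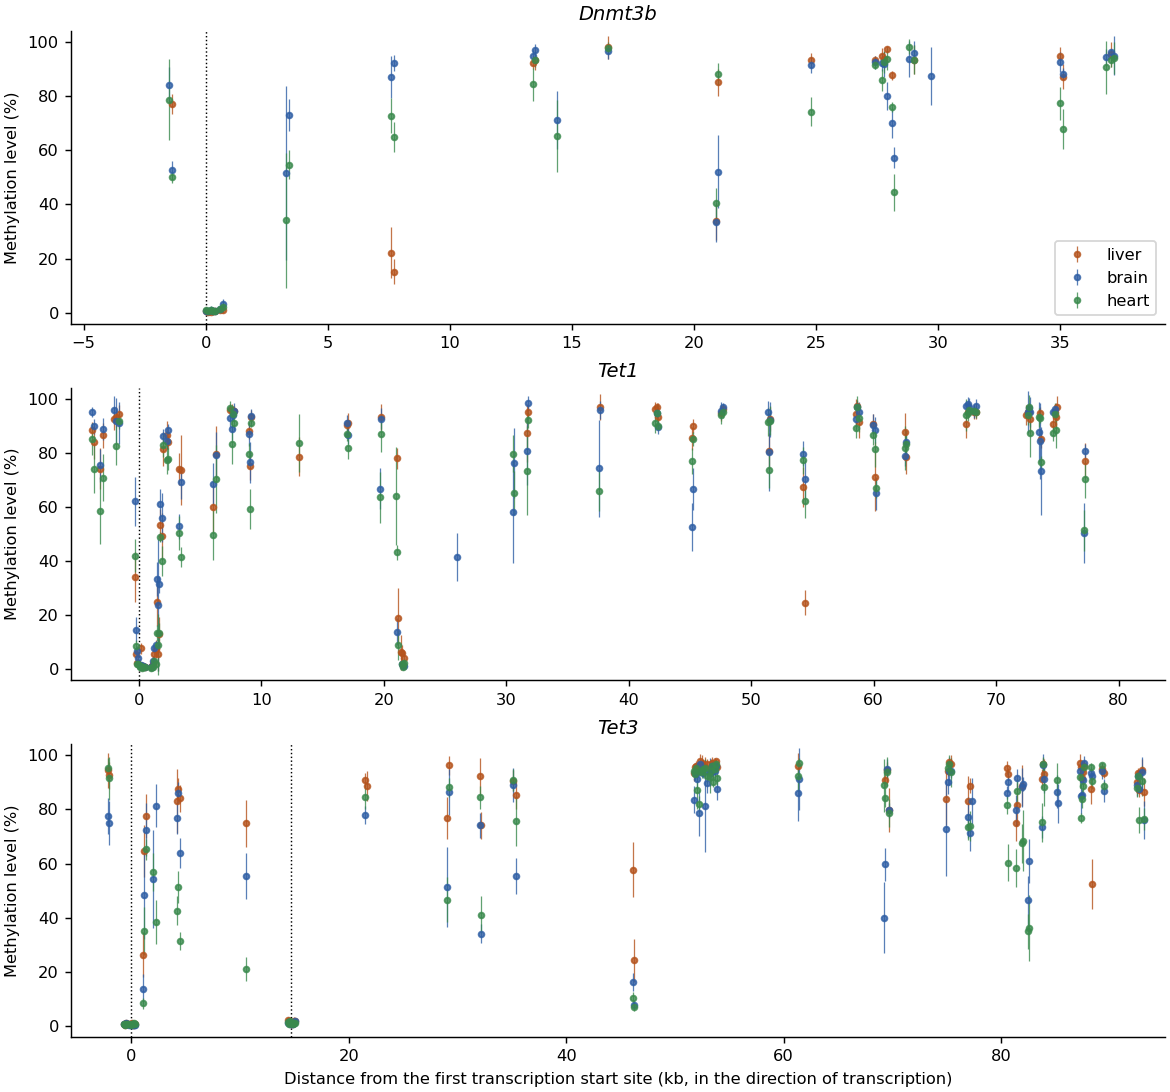
Methylation level (%) of each covered tile of Dnmt3b, Tet1 and Tet3 by distance (kb) from the first transcription start, as mean ± SD over 12 liver, 6 brain and 6 heart libraries, with dotted lines at the starts. Liver is low in intron 2 of Dnmt3b (15.1%), the tissues separate in intron 2 of Tet1 (77.9, 14.0 and 43.2% in liver, brain and heart), and heart is lowest between the 2 starts of Tet3 at all 7 tiles covered in the 3 tissues.

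In Uhrf1 the tile with the largest difference lies in intron 13 (chr17:56319801-56319900, 2 CpGs). Liver held 22.2 to 35.5% (median 29.3%), brain 89.3 to 94.2% (median 92.4%) and heart 84.2 to 94.0% (median 90.6%). Liver was separate from both, lower by 63.3 ± 2.38 points (adjusted p = 2.9e-14) and 60.8 ± 2.44 points (adjusted p = 6.8e-14). Brain and heart overlapped, with a difference of 2.45 ± 1.82 points (adjusted p = 0.32). Of the 21 Uhrf1 body tiles covered in liver, this one included, 18 had a liver mean over 80%.

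**Figure D5:**
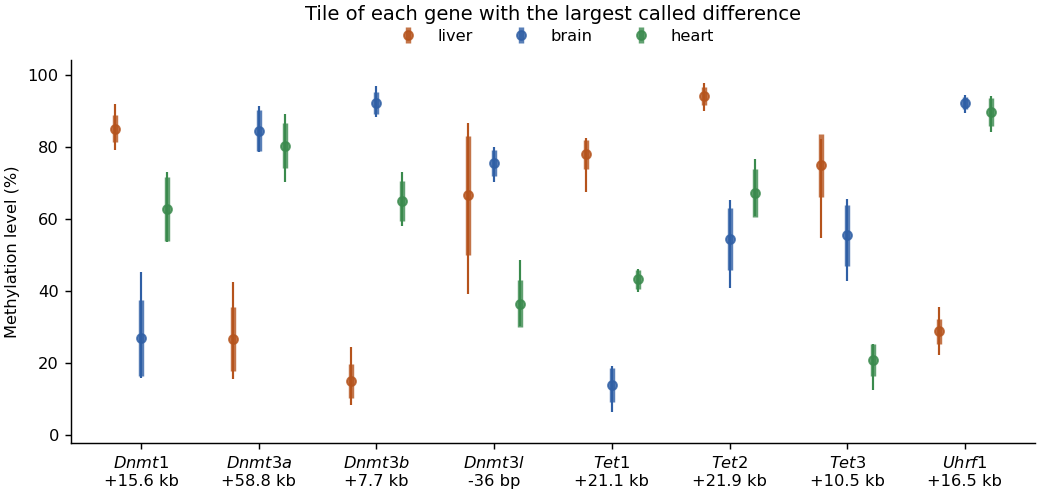
Methylation level (%) of the tile with the largest called difference in each gene, with its distance from the first transcription start. Points are means over 12 liver, 6 brain and 6 heart libraries, thick bars the SD and thin lines the range. Liver is the lowest tissue in Dnmt3a (26.7%), Dnmt3b (15.1%) and Uhrf1 (28.8%), brain in Dnmt1 (26.9%), Tet1 (14.0%) and Tet2 (54.4%), and heart in Dnmt3l (36.5%) and Tet3 (21.0%).

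The promoter tiles of the 8 genes held a mean of 9.45 CpGs, against 7.53 over the 106858 promoter tiles of all genes, and their body tiles 2.91 against 2.86. At the starts, the unmethylated stretch of Dnmt3a had 237 CpGs in 17 tiles and that of Tet3's first start 120 in 10, while those of Tet1 and Dnmt1 had 72 in 12 and 62 in 10. Masked repeats took up 50 bases or more in 19.1% of the member body tiles and 19.4% of all body tiles.

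Genes with a like pattern were sought for the called promoter and body by the root mean square difference of the level over all 24 libraries. For the Dnmt3a body these were Rasal2 (1.24 points), Lemd2 (1.44) and Tnrc18 (1.53) out of 16703 genes. For the Dnmt3l promoter they were Cc2d2b (4.03), Mmp9 (4.63) and Foxr1 (4.64) out of 14531.

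A list of 18 further genes of DNA methylation and its upkeep was examined in the same fits. Over all gene regions, 14.2% were called between liver and brain, 19.2% between liver and heart and 14.8% between brain and heart. These shares pool promoters, bodies and flanks, while the counts of this short list are given by class. They are therefore only a rough scale for the counts, and the list was not tested. Of 16 measured bodies, 2 were called higher and 1 lower in liver than in brain, 3 higher and 1 lower in liver than in heart, and 1 higher in brain than in heart. Over the list's bodies the median difference was 2.43, 3.64 and 1.30 points in these comparisons, where all gene bodies had 1.06, 5.12 and 3.76. Ahcy, which removes the by-product of methyl transfer, was the lower one over its 3 tiles, at 72.5% in liver against 94.3% in brain and 88.6% in heart. Smug1, a uracil-DNA glycosylase, was higher in liver than in brain by 13.2 ± 0.89 points (adjusted p = 1.1e-10) and than in heart by 16.7 ± 0.79 points (adjusted p = 2.6e-13). Of 16 measured promoters, that of Nsd1, a histone H3 lysine 36 methyltransferase, was called higher in liver than in brain (72.9% against 57.6%) and in heart (50.2%). The promoter of Dppa3, which shields the maternal genome from Tet3 in the zygote, was lower in heart, at 52.5%, than in liver, at 81.7%, or brain, at 81.2%. Of the upstream flanks, 2 of 7 were called higher in liver than in heart and 3 of 8 higher in brain than in heart, with those of Uhrf2 and Setdb1 in both.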

How the data were processed

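Libraries were prepared, sequenced and mapped by a commercial service with methods of its own. The authors combined CpG calls with methylKit in tiles of 100 bp, kept tiles with more than 10 reads in every library of a tissue and below a coverage ceiling, and deposited the methylation level as a fraction from 0 to 1 per library (mm10), without counts or scaling between libraries as far as stated. The submitters' processing notes also name Bismark. The fractions were multiplied by 100 here. Tiles were matched to mm10, on which 99.8 to 99.9% held a CpG, against 55.0 to 55.2% after a shift of 100000 bp.

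Columns were given to tissues by table and number of columns, and all 24 were used. Promoters, bodies and flanks came from 43783 curated RefSeq transcripts. Levels were compared between tissues with limma version 3.58.1 (trended eBayes, R version 4.3.3) over all regions or tiles of all genes with Benjamini-Hochberg adjustment, and every adjusted p in the text is from these fits. In a check on simulated data, 200 regions were shifted by 15 points in each comparison. Of these, 95.5% were recovered for liver against brain (38761 regions, 3 false calls). The share was 97.5% for liver against heart (38742 regions) and 87.5% for brain against heart (40961 regions), with 0 false calls in the last 2. The shifted regions were drawn only from those of intermediate mean level. Nearly unmethylated promoters and highly methylated bodies, which many regions of the examined genes are, were not among them. How well shifts are recovered there is not shown.

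The rule for naming took the regions of the 8 genes and, per gene, the called tile with the largest difference, the longest run of adjoining called tiles and the tile nearest each start. Tiles nearest a start that are not printed lay in unmethylated promoters. Other tiles lie outside this rule and are to be read as chosen after their values were seen, also where this is not marked. Among the unmarked are the Uhrf1 tile upstream of its first start, the flank tiles of Dnmt3b and Tet3, and the low tiles inside Dnmt3l and Tet1. The genes and lists were chosen with earlier results of these data known. Sequences are from the mm10 genome as distributed by RefSeq (GRCm38). 2 mouse numbers carry different genders in different tissues in the labels, and gender was not used.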

Additional observations from a re-analysis of the deposited data

Results flagged for a closer look

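In brain and heart, the highest or lowest of the 6 libraries of each gene region with 3 or more tiles was set against the rest, in 38 groups, and chance alone would mark about 1 in 20 of such groups. Both marks fell in brain. In the body of Dnmt3a 1 brain library stood at 60.5%, where the others ran from 57.4 to 58.4%, and the gap was 0.69 of the range. Over each table's own tiles, as here, the brain mean was 58.3% and the liver mean 71.2%, so that this library lies towards liver. The call between liver and brain was made over the 74 tiles covered in both, at 70.5% and 58.9%. In the promoter of Dnmt3b 1 brain library stood at 1.2%, where the others ran from 0.52 to 0.74%, and the gap was 0.68 of the range. Liver, with 12 libraries, was not examined in this way.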

How the results depend on the processing

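The logit scale, predicted transcripts, a fit over all 24 libraries and, for regions, an exact permutation test left the counts of called regions and tiles within 1.5 times those reported. For regions in liver against brain (1 reported), a promoter of 1000 bp upstream alone gave 2, one of 2000 bp on both sides 2, and regions with 1 or more tiles 3. In liver against heart (3 reported), leaving out tiles that touch another gene gave 1, each table's own tiles 7 and centring on the class median, an alternative chosen after seeing the data, 1. Leaving out those tiles removes the Dnmt3l promoter, which then has no value. A minimum of 25 points left 0 regions in each comparison, where 9, 10 and 9 of the 19 had an adjusted p of 0.01 or less by limma. A minimum of 10 points raised the called tiles from 41 to 89 (liver against brain), from 44 to 107 (liver against heart) and from 24 to 71 (brain against heart). Leaving out each library in turn gave 1 to 1, 3 to 4 and 3 to 3 called regions. The fourth region in liver against heart was the Tet1 flank, at 10.4 points without heart column 1. Of the single differences 1276 kept their direction and side of the threshold, 8 came to pass it and 2, both of the Dnmt3l promoter, no longer did. The cause of these changes was not tested, and no difference past the threshold reversed.

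No paired analysis was possible because the level columns carry no mouse number. The coverage minimum could not be varied, and without read counts the counting error of a level is unknown. Tiles with few reads move in coarse steps, and tiles covered in 1 table only take no part in a comparison. Bisulphite levels hold 5-methylcytosine and 5-hydroxymethylcytosine together. Brain and heart libraries came from mice also in the liver group, which the fits treat as unrelated.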
